A study of Homo sapiens with 23 samples.

Results

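Resistant clone 12 is a line expanded from 1 colony of WM989 A6-G3 melanoma cells that grew out under dabrafenib and trametinib, and it was compared here with the untreated parent and with the 6 other resistant clones of the series. Its 3 libraries and the 3 untreated libraries were taken by their labels, 6 of 23 libraries in all. WM989 A6-G3 is a human melanoma line bottlenecked to single cells, labelled WT in genotype for parent and clones alike, and untreated cells were grown without drug. Clone 12 (labelled line C3) was kept in 250 nM dabrafenib, which inhibits mutant BRAF, and 2.5 nM trametinib, which inhibits MEK, as were clones 10, 11 and 13. Clones 7, 8 and 9 grew out under the BRAF inhibitor vemurafenib and were kept in 1 µM of it. The other clones gave 17 libraries, 3 each except clone 11 with 2. Poly(A) RNA was sequenced and the deposited values are TPM, a length-corrected share of each library's transcripts. Clone 12 is 1 clone, and resistance and drug in the medium cannot be told apart against untreated cells. In these bulk libraries, fewer cells of a kind and less RNA per cell cannot be told apart either.

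Melanoma cells that survive inhibition of the BRAF and MEK kinases can leave the pigment cell program and take on a state with many transcripts of mesenchymal cells: collagens, growth factor receptors and genes of the contractile apparatus. Contractile genes such as ACTA2 are typical targets of serum response factor with its myocardin family partners, and of TGF-beta signaling, which acts through SMAD proteins and induces matrix genes. Cholesterol synthesis is controlled as a unit by the SREBP transcription factors, which INSIG proteins hold back when sterol is plentiful.

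TPM keeps no read depth, so no counting interval can be given, and the error is the spread between libraries. What set the replicates of a group apart is not stated in the labels, so p-values may measure technical spread. Clone 12 libraries had 21358 to 22223 genes above 0, against 22738 to 23003 in untreated cells and 14415 to 24039 in the other clones. Mitochondrially encoded genes held 13.2% ± 1.44 (SD, n = 3) of the TPM total in clone 12 libraries, against 20.9% ± 0.31 (SD, n = 3) in untreated ones. All levels below are TPM after scaling between libraries. All fold changes and differences are on log2(scaled TPM + 1), which understates the change of low genes. A gene is said to have risen or fallen, or is called, when limma gave a Benjamini-Hochberg adjusted p under 0.05 over the 15657 genes tested and an absolute log2 change of at least 1.

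Against untreated cells, 1798 genes were higher in clone 12 (11.5% of those tested) and 1256 were lower (8.02%). With TPM as deposited, unscaled, the counts were 2171 and 967, since the median log2 change of all genes was 0.16 unscaled and 0 scaled. Most of this was not particular to clone 12: against the unweighted mean of the other 6 clones, a contrast in which the untreated libraries cancel, 339 genes were called (2.17%), 218 higher (1.39%) and 121 lower (0.773%). That mean itself had 1710 genes higher (10.9%) and 1252 lower (8%) than untreated cells. The number called lower was 192 when clone 10 was left out of the others. The SE and p-value of this contrast hold only the spread between libraries within a group, not the spread between clones. A call in it therefore does not place clone 12 outside the range of the other clones. At an unadjusted p under 0.05, with no minimum fold, 13% of tested genes were higher and 12.3% lower in this contrast, and 27.1% and 25.3% against untreated cells. Of the 218, 157 (1% of tested genes) had also risen against untreated cells, so they rose more than the other clones did on average. In 40 genes (0.255%) the other clones' mean had fallen and clone 12 stood above it. Of the 121, 95 (0.607%) were genes whose rise in the other clones was smaller in clone 12 or absent, and 17 (0.109%) were genes whose fall was larger in clone 12. The other 30 genes were in none of these 4 classes. The class sizes depended on single libraries and clones: the 40 became 67 without clone 12 replicate 3, 26 without its replicate 1, 62 without clone 10 and 26 without clone 8. The 17 became 29 without clone 10 and 10 without clone 11, and the 95 became 151 without clone 10. Each other clone was also set against untreated cells, and clone 7 had 11% of genes higher and 8.54% lower. The shares higher were 11% for clone 8, 11.5% for clone 9, 11.8% for clone 10, 11.7% for clone 11 and 12.3% for clone 13, and in the same order the shares lower were 9.29%, 8.29%, 10.5%, 9.53% and 8.35%. Of the 157 larger rises, 37 were called higher in all 6 other clones, and 13 were called in clone 12 and in 0 others. Counts of called list members below stand beside shares of all tested genes of 11.5% higher and 8.02% lower against untreated cells. Against the other clones' mean those shares are 1.39% higher and 0.773% lower.

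**Figure D1:**
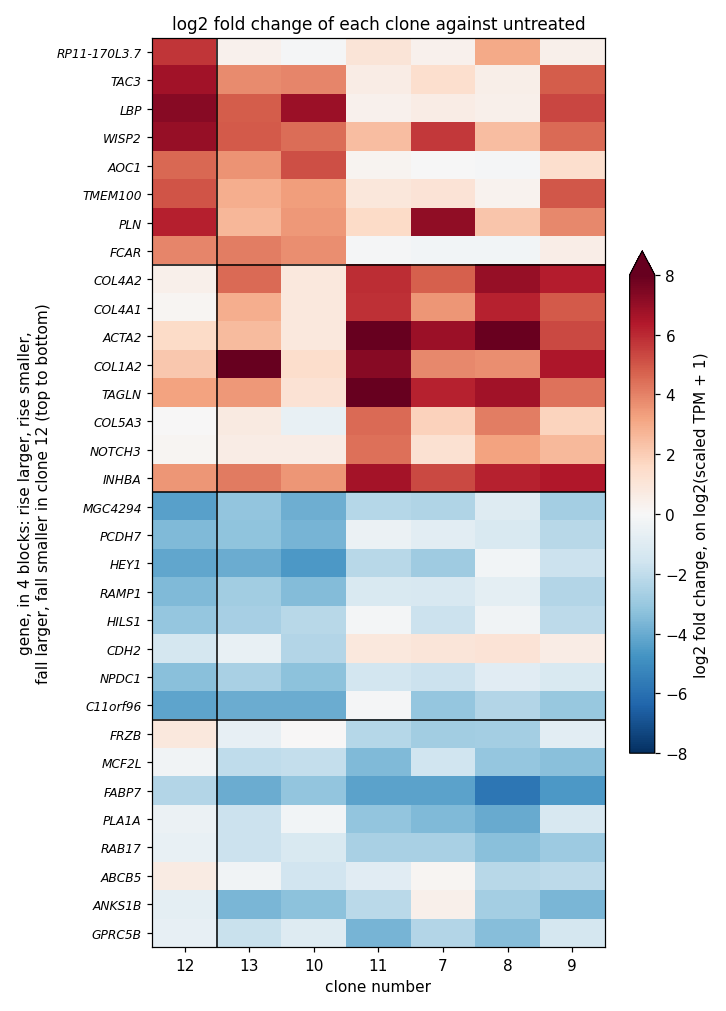
Log2 fold change against untreated cells for the 8 leading genes of each of 4 classes (rows) in each clone (columns, clone 12 at left), with red for higher and blue for lower; values above 8 have the darkest red. In the second block clone 12 has 0.14 for COL4A1 and 3.23 for TAGLN, and clones 11 and 8 are a darker red than clone 12 in all 8 genes.

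TAC3, WISP2, MCF2L, ELSPBP1 and UGT1A7 were the genes higher in clone 12 than in each of the other 6 clones tested singly (0.0319% of tested genes). The genes lower than in each of them numbered 0 (0%), and 0 also at an unadjusted p under 0.05 with the same fold in limma. The count of 5 became 16 without clone 12 replicate 3, with 2 genes then lower, and it became 17 higher and 10 lower with clone 10 left out, 11 higher without clone 7 and 8 higher without clone 9. Without clone 8, or without its replicate 3, 1 gene was lower. TAC3 encodes the precursor of the peptide neurokinin B. Its level was 144, 119 and 78.6 TPM in the 3 clone 12 libraries and 0.0162 to 0.0751 TPM in untreated cells. The other clones' libraries ran from 0.266 to 31.3 TPM, with the highest mean in clone 9 at 29.7 TPM, so no library of another clone reached clone 12. The rise was 6.73 against untreated cells (SE 0.34, adjusted p = 4.26e-12), and the difference from the other clones' mean was 4.24 (SE 0.26, adjusted p = 9.66e-09).

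WISP2, also named CCN5, encodes a secreted matricellular protein of the CCN family. It stood at 187, 218 and 128 TPM in clone 12, 0.314 to 0.404 TPM in untreated cells and 3.76 to 76.8 TPM in the other clones' libraries. Every clone 12 library lay above every other library, and the difference from the other clones' mean was 2.90 (SE 0.24, adjusted p = 3.19e-07). MCF2L, a guanine nucleotide exchange factor, is a different case: it was high in the parent and was kept in clone 12. It stood at 139, 153 and 149 TPM in untreated cells and 175, 142 and 73.8 TPM in clone 12, a change of -0.26 (adjusted p = 0.591). The other clones' libraries held 8.32 to 77.6 TPM, their mean had fallen by 2.57, and replicate 3 of clone 12 lies inside their range.

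ELSPBP1, which encodes a sperm-binding protein of the epididymis, had a low level of 3.89, 5.92 and 2.73 TPM in clone 12 and at most 1.67 TPM in any other clone's library. UGT1A7, a glucuronosyltransferase, had 7.23, 3.86 and 3.32 TPM in clone 12 and at most 1.92 TPM in the other clones. It shares its last exons with the rest of the UGT1A family, so its estimate is uncertain, as is that of UGT1A10, at 4.95 to 6.14 TPM in clone 12 and at a mean of 24.7 TPM in clone 13. ELSPBP1 and UGT1A7 were too low to be tested under a stricter filter, and the other 3 genes were then still called against each clone. Without clone 12 replicate 1, MCF2L and UGT1A7 were no longer called against each clone, nor was MCF2L without its replicate 2 or ELSPBP1 without clone 10 replicate 1. Over all tested genes, the 3 clone 12 libraries lay above all 17 libraries of the other clones in 64 genes (0.409%) and below them in 47 (0.3%).

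**Figure D2:**
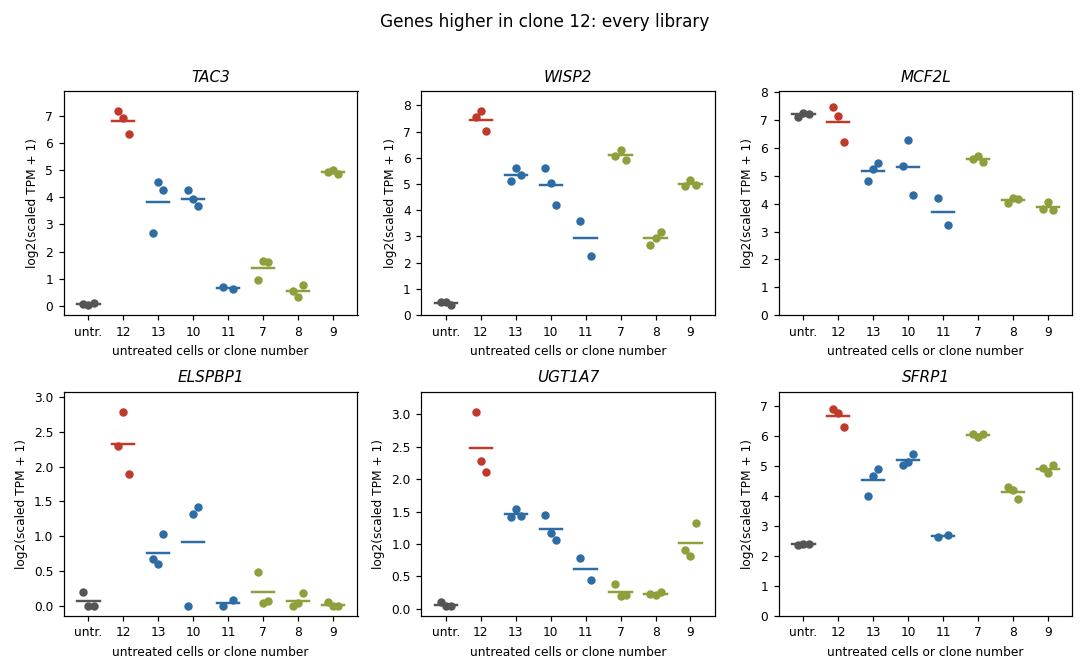
Level of 6 genes in every library, on log2(scaled TPM + 1), by group (untreated, clone 12, the 3 other dabrafenib/trametinib clones in blue, the 3 vemurafenib clones in green); points are libraries and bars are group means. Clone 12 lies above every other clone's library for TAC3, WISP2, ELSPBP1, UGT1A7 and SFRP1, and for MCF2L replicate 3 of clone 12 falls among the other clones while untreated cells are high.

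Other genes with large rises in clone 12 included several with similar or higher means in another clone. LBP encodes the lipopolysaccharide-binding protein of the acute phase response. It stood at 293, 274 and 60.8 TPM in clone 12, under 0.2 TPM in untreated cells, at a mean of 189 TPM in clone 10 and at 0.416 TPM in clone 11. The difference from the other clones' mean was 4.19 (SE 0.48, adjusted p = 8.93e-06), but the difference from clone 10 alone was 0.43 (adjusted p = 0.71). AOC1, the histamine-degrading diamine oxidase, and FCAR, the Fc receptor for IgA, were likewise not called different from clone 10, with differences of -0.57 and 0.23. PLN, the calcium pump inhibitor phospholamban, had 90.6, 91.1 and 58.3 TPM in clone 12 and a mean of 145 TPM in clone 7, with at most 14.1 TPM as the mean of any other clone. TMEM100, a transmembrane protein of endothelium and lung, had 40.2, 38.7 and 30.5 TPM in clone 12 and a mean of 33.3 TPM in clone 9. RP11-170L3.7, a transcript named by its clone, headed this class with a difference of 4.88, but its libraries scattered widely at 53.8, 6.47 and 1325 TPM, and 1 library of clone 8 held 1332 TPM. Its call was lost without clone 12 replicate 1 (5.16) or replicate 3 (2.86), and without clone 7 (4.78), clone 9 (4.79) or clone 13 (4.77). AGT, angiotensinogen, chosen here after its values were seen, had 852, 529 and 187 TPM in clone 12, 1.29 to 1.44 TPM in untreated cells and clone means of 15.7 to 353 TPM elsewhere (difference 2.56, SE 0.37, adjusted p = 0.000103). It had risen in all 6 other clones, and its differences from clones 9, 10 and 13 alone (0.55, 0.50 and 1.04) were not called.

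Of the 13 larger rises called in 0 other clones, the naming rule gives APOE, CTSK and PROS1 beside ELSPBP1 and RP11-170L3.7. APOE, a lipid carrier, had 1638, 1377 and 883 TPM in clone 12, 486 to 578 TPM in untreated cells and clone means of 240 to 804 TPM elsewhere. The difference from the other clones' mean was 1.29 (SE 0.20, adjusted p = 0.000194), though those from clones 13 and 10 alone (0.69 and 0.68) were not called. CTSK, the protease cathepsin K, had 2351, 1414 and 358 TPM, and PROS1, the anticoagulant protein S, had 112, 70.5 and 31.8 TPM. In both, replicate 3 was near the untreated level, and without replicate 1 the differences were 0.71 for CTSK and 0.66 for PROS1, neither of them called. Without replicate 2 neither was called (1.08 for CTSK, 0.996 for PROS1), nor without clone 8 (1.12 and 0.99) or clone 11 (1.12 and 0.95), and CTSK was not called without clone 9 (1.14). Their rises against untreated cells were not called without replicate 1 (1.048 for CTSK, 0.75 for PROS1), and that of CTSK not without replicate 2 (1.41). Among genes picked after their values were seen, PCSK2, a prohormone convertase, had 14.8 ± 6.31 TPM (SD, n = 3) in clone 12 and 5.07 TPM in untreated cells. MEIS1, a homeobox factor, was the fall called in clone 12 and in 0 other clones (5.45 to 1.64 TPM, -1.30).

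Growth factor genes included 3 of 40 tested receptor tyrosine kinases and ligands that were higher than in the other clones and 2 that were lower, with a median difference of -0.07 beside 0.00 for all genes. HGF, the ligand of MET, had 30.1, 54.8 and 96.1 TPM in clone 12 and under 0.1 TPM in untreated cells, and clone means elsewhere of 1.08 to 56.6 TPM. The difference was 1.95 (adjusted p = 0.00406) and the call was lost without clone 8 (1.40). PDGFRA, a receptor of platelet-derived growth factors, had 45.6, 58.5 and 48.1 TPM against 3.91 to 83.3 TPM as means of the other clones, and its ligand gene PDGFD had 11.7, 12.5 and 9.26 TPM against 0.307 to 15.1 TPM. The differences from clone 9 alone and from clone 10 alone were not called in any of the 3 genes. FGF1, a fibroblast growth factor, and ROR2, a WNT5A receptor outside the naming rule, were the 2 lower genes (-1.19 and -1.16). The call of FGF1 was lost without clone 12 replicate 2 (-0.98) or clone 11 (-0.92).

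In the WNT list 2 of 21 tested genes, both secreted antagonists, were higher and 1 was lower. SFRP1, which binds WNT ligands outside the cell, had 119, 109 and 77.6 TPM in clone 12, 4.13 to 4.32 TPM in untreated cells and 5.12 to 67.2 TPM in the other clones' libraries. No other clone's library reached clone 12, and the difference was 2.08 (SE 0.14, adjusted p = 4.02e-08), although that from clone 7 alone, 0.61, was not called. SFRP4 had 93.6 to 114 TPM in clone 12 but means of 317 and 221 TPM in clones 10 and 9, and its call (1.43) was lost without clone 8 (0.93) or clone 11 (0.86). FZD8, a WNT receptor, was lower by -1.41. FRZB, a further secreted antagonist and the leading gene among smaller falls, had 19.3, 16.5 and 10.5 TPM in clone 12 and 7.65 to 7.90 TPM in untreated cells, while the other clones' mean had fallen by 1.54.

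Adhesion and cytokine genes were called in both directions. Of 31 integrin and adhesion genes, 4 were higher and 3 lower, beside 1.39% and 0.773% of all tested genes. VCAM1, an adhesion receptor for leukocyte integrins, had 532, 604 and 629.5 TPM in clone 12 and under 0.5 TPM in untreated cells (rise 8.72), with clones 13, 10 and 9 at means of 491, 918 and 738 TPM and clones 11, 7 and 8 at 10.1 to 78.5 TPM. CADM1, an immunoglobulin-type adhesion molecule, had 441 to 520 TPM, with a higher mean in clone 10 (653 TPM). CDH13, a cadherin without a cytoplasmic domain, was lower (-1.39), as was CDH2, given with the larger falls, and ALCAM (1.19), ITGB8 (1.054) and ITGA5 (-1.36), outside the naming rule, completed the list. Of 20 tested complement and coagulation genes, 2 were higher, PROS1 among them, and 0 lower (0 also at an unadjusted p under 0.05 in limma). Among 26 cytokine genes, IL1RN, IL34 and TSLP (the last outside the rule) were higher and CCL3 and CCL5 lower. IL1RN, the interleukin-1 receptor antagonist, had 32, 23.7 and 5.28 TPM, and its clone means elsewhere ran from 0.328 to 40.2 TPM. The chemokine calls rested on clone 8: without it the differences were -0.59 for CCL3 and -0.74 for CCL5. IL34 lost its call without clone 7 (0.99) or clone 8 (0.97).

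The type IV collagen genes COL4A1 and COL4A2 stayed near the untreated level in clone 12 and rose in most other clones. COL4A1 had 0.246, 0.0807 and 0.293 TPM in clone 12 and 0.0148 to 0.156 TPM in untreated cells, against clone means of 1.77 to 78.6 TPM elsewhere. COL4A2 had 0.485, 0.417 and 0.862 TPM in clone 12 and 0.0807 to 0.251 TPM in untreated cells, against 2.03 to 151 TPM. The difference from the other clones' mean was -3.88 for COL4A1 (SE 0.37, adjusted p = 1.64e-06) and -4.46 for COL4A2 (SE 0.35, adjusted p = 2.07e-07). Clone 10 was the other clone with low levels: its replicates 2 and 3 had 0.0738 and 0.094 TPM of COL4A1, while its replicate 1, the library with the fewest genes above 0, had 5.16 TPM. Differences from clone 10 alone were -0.68 and -0.44, neither called, and each of the other 5 clones was called higher than clone 12 in both genes. The encoded chains assemble together into the network of basement membranes, and the genes lie head to head. RefSeq promoter windows on GRCh38.p14, 250 bases before to 50 after each start, are shown because the pair is transcribed outward from a common stretch: chr13:110307108-110307407 on the minus strand and chr13:110307034-110307333 on the plus strand. The starts are 127 bases apart, the capitals mark the 126 bases between them, and the windows overlap by 226 bases.
COL4A1: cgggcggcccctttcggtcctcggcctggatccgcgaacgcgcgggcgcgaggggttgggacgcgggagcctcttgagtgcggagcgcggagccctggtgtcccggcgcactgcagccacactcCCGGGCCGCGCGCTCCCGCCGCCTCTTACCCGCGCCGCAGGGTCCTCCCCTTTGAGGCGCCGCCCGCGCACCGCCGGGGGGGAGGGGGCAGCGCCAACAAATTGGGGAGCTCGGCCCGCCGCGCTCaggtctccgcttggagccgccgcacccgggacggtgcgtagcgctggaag
COL4A2: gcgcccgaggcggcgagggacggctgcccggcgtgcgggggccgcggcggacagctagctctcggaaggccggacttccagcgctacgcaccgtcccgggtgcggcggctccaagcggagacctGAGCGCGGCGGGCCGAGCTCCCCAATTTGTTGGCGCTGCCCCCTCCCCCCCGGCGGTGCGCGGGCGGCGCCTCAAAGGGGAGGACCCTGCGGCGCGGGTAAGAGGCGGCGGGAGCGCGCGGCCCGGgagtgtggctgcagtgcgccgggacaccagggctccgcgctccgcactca

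Other matrix genes showed the same direction in part. Of 41 tested extracellular matrix genes, 27 had risen and 0 had fallen in clone 12 against untreated cells (1 lower at an unadjusted p under 0.05 in limma), and against the other clones 1 was higher and 6 lower, with a median difference of -0.35. Over all tested genes, 11.5% had risen and 8.02% had fallen against untreated cells. Against the other clones, 1.39% were higher and 0.773% lower. The direction of the matrix list was not kept against clone 10 alone, with 4 of the 41 higher in clone 12 and 3 lower (median 0.15). Against clone 13 alone, 1 was higher and 7 lower (median -0.17). COL1A2, the alpha-2 chain of type I collagen, had 2.59, 2.79 and 13.5 TPM in clone 12, 0.246 to 0.396 TPM in untreated cells and means of 3.17 TPM in clone 10 and 16.4 to 366 TPM in the rest (difference -2.98, SE 0.35, adjusted p = 1.11e-05). Its partner COL1A1, chosen after its values were seen, stood at 2013 ± 600 TPM (SD, n = 3) in clone 12, a rise of 8.03, and was not called different from the other clones (-0.73). So the 2 chains of type I collagen, compared in TPM, which is per length, were far apart in clone 12. COL1A1 had also risen in all 6 other clones, by 8.76 in their mean. COL1A2 had means of only 3.17, 16.4 and 17.7 TPM in clones 10, 8 and 7. The gap between the chains was therefore not shown to be particular to clone 12. COL6A3, a chain of type VI collagen, had 10.3, 13.4 and 24 TPM in clone 12, within the range of the other clones' libraries of 4.43 to 429 TPM (difference -1.64). The higher gene was COL14A1 (1.19), and FN1 (-1.17) and POSTN (-1.62) were the remaining lower ones, all 3 outside the naming rule. COL5A3, in the rise-smaller class, had 3.10 to 5.55 TPM in clone 12 and 3.93 to 4.18 TPM in untreated cells, against a median of 16.3 TPM over the other clones' libraries. ADAM19, a metalloprotease, was lower by -1.67.

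Contractile genes were the list with the largest share called lower among those of over 10 tested genes: 9 of 25 tested, with 0 higher (0 also at an unadjusted p under 0.05 in limma) and a median difference of -0.87. Against untreated cells 12 of the 25 had risen in clone 12, and 19 had risen in the mean of the other clones. Over all tested genes, 0.773% were lower than in the other clones, and 11.5% had risen in clone 12 and 10.9% in the other clones' mean. ACTA2, smooth muscle actin, had 30.8, 21.2 and 67.7 TPM in clone 12, 10.6 to 12.7 TPM in untreated cells and a median of 511 TPM over the other clones' libraries, with a mean of 4403 TPM in clone 11. The difference was -3.77 (SE 0.44, adjusted p = 1.11e-05). The rise of ACTA2 against untreated cells, 1.54 (adjusted p = 0.0327), was not stable: it lost its call without clone 12 replicate 1 (1.64) or replicate 3 (1.08) and without each untreated replicate (1.48 to 1.61). TAGLN, the actin-binding transgelin, had 40.5, 25.5 and 94.2 TPM, 3.07 to 4.61 TPM in untreated cells and clone means of 11.7 to 4821 TPM elsewhere (difference -2.06, adjusted p = 0.000255). ACTG2, enteric smooth muscle actin (-2.29), LMOD1, an actin nucleator (-1.84), CNN1, calponin (-1.72), and the genes FLNC (-1.62), MYLK (-1.61), SYNM (-1.15) and KRT18 (-1.14) were the other members. FLNC, MYLK and SYNM lie outside the naming rule. CNN1 lost its call without clone 11 (-0.94) and KRT18 lost it without clone 12 replicate 2 (-0.97), clone 12 replicate 1 (-0.999), clone 8 (-0.92) or clone 9 (-0.99). Clones 10 and 13 had low levels of these genes too: against clone 10 alone 1 of the 25 was higher in clone 12, TAGLN (2.07), and 1 lower, and against clone 13 alone 0 were higher and 1 lower. For ACTA2 the high means were those of clones 11, 8, 7 and 9, at 4403, 3058, 1433 and 480 TPM. MYOCD, the gene of the cofactor myocardin, picked after its values were seen, had 0.453, 0.61 and 2.29 TPM in clone 12 and means of 89.7, 53.5 and 11.6 TPM in clones 11, 8 and 7 (difference -2.11). Its means were 1.70 TPM in clone 9, 0.817 TPM in clone 10 and 0.412 TPM in clone 13, so that 2 clones lay below clone 12.

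**Figure D3:**
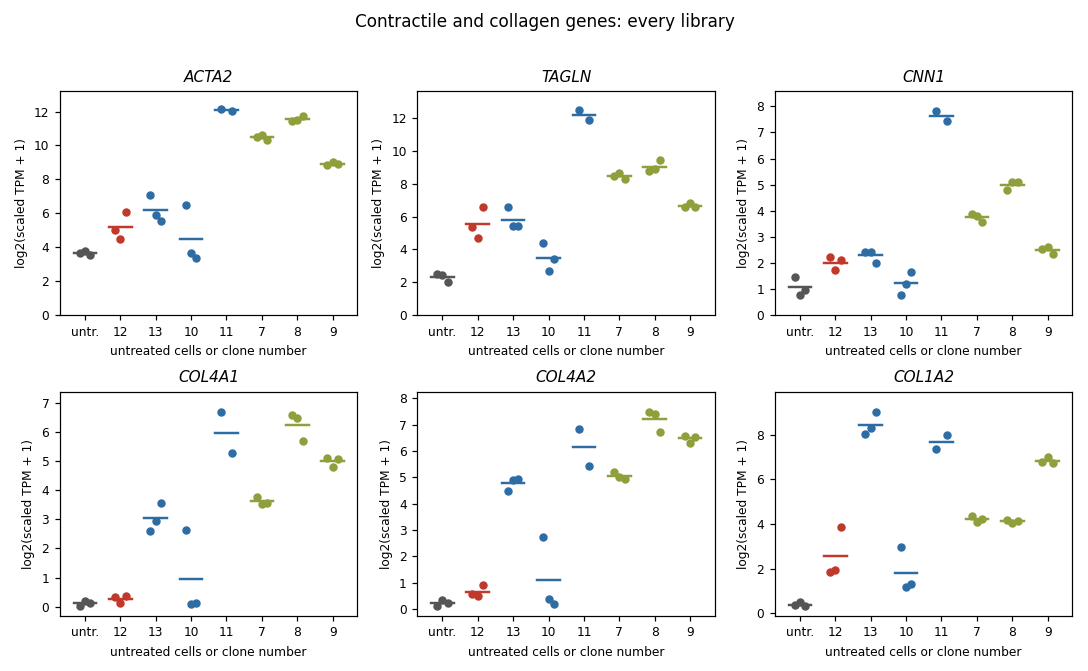
Level of 3 contractile genes (top) and 3 collagen genes (bottom) in every library, on log2(scaled TPM + 1), by group; points are libraries and bars are group means. Clone 12 lies beside untreated cells for COL4A1 and COL4A2, and clone 10 is the clone nearest to it, with its replicate 1 above its other libraries.

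Serum response factor binds the CArG box, a 10-base motif whose pattern is the same on both strands. It occurred in 454 of 35116 RefSeq promoter windows of 300 bases (1.29%). Of the 9 contractile genes lower in clone 12, 7 had a window in the RefSeq table, and ACTG2 and MYLK held the motif. Both are printed because they carry it, with the CArG boxes in capitals: chr2:73892758-73893057, plus strand, and chr3:123620499-123620798, minus strand, on GRCh38.p14. The 2 boxes of ACTG2 begin 110 and 73 bases before the start, and that of MYLK begins 94 bases before it. A match in letters is not a measured site, and no other motif was searched.
ACTG2: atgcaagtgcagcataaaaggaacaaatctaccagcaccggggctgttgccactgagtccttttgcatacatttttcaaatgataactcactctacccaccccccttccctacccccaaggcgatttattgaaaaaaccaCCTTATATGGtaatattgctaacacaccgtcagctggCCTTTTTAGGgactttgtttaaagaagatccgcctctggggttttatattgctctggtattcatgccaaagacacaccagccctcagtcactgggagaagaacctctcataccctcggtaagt
MYLK: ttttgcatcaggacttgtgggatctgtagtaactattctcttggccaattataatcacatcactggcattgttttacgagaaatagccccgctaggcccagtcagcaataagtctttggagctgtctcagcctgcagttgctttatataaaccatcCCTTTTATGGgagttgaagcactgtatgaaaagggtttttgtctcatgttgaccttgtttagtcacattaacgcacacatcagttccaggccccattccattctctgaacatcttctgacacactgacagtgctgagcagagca
In clone 12 the levels of ACTG2 were 13.8, 15.4 and 34.9 TPM and those of MYLK were 52.9, 69.5 and 126 TPM. In clone 11 the means were 1700.0 TPM for ACTG2 and 2206 TPM for MYLK. Clone 12 was not the lowest clone in either gene. Its ACTG2 mean of 21.4 TPM lay above those of clones 10, 9 and 13, at 19.3, 16.6 and 8.41 TPM. For MYLK its mean of 82.9 TPM ranked 5 among the 7 clones, and clone 9 was lowest at 57.4 TPM.

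TGF-beta and BMP genes gave 5 lower and 0 higher of 24 tested (2 higher at an unadjusted p under 0.05 in limma), with a median difference of -0.40. INHBA, the subunit of activin A, had 15.3, 8.98 and 16.3 TPM in clone 12, 0.199 to 0.25 TPM in untreated cells and 9.83 to 168 TPM in the other clones, a smaller rise (3.53 against a mean of 5.37). ID1, ID2 and ID3, inhibitors of basic helix-loop-helix factors and targets of BMP signaling, differed by -1.46, -1.37 and -1.45. ID3 had 71.1, 28.6 and 48.8 TPM in clone 12, 1.009 to 1.499 TPM in untreated cells and a median of 143 TPM over the other libraries. The rise of ID2 against untreated cells (1.08) lost its call without clone 12 replicate 1 (0.70). SMAD7, an inhibitor of the pathway and outside the naming rule, had 4.20, 2.72 and 4.11 TPM in clone 12 and 3.46 to 3.62 TPM in untreated cells, against clone means of 7.07 to 16.8 TPM elsewhere, with a difference of -1.28. Clone 10 had low means too, at 13.7 TPM for INHBA and 4.39, 25.3 and 51.9 TPM for ID1, ID2 and ID3. Against clone 10 alone, 1 of the 24 was higher in clone 12 and 0 lower. Against clone 13 alone, 0 were higher and 3 lower. With clone 10 left out of the others, 8 members of the list were lower.

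NOTCH genes gave 3 lower and 0 higher of 13 tested (1 higher at an unadjusted p under 0.05 in limma), beside 0.773% lower and 1.39% higher of all tested genes. NOTCH3, a receptor of vascular smooth muscle, had 0.24, 0.712 and 1.85 TPM in clone 12 and 0.409 to 0.779 TPM in untreated cells, and reached a mean of 33.6 TPM in clone 11 (difference -1.95). JAG1, a NOTCH ligand, had 7.34, 8.09 and 11.7 TPM against 10.4 to 107 TPM in the other clones' libraries, and lost its call (-1.33) without clone 11 (-0.98). HEY1, a NOTCH target, had 52.8 to 54.1 TPM in untreated cells and 2.89, 2.15 and 1.38 TPM in clone 12, a fall of -4.14 that was larger than the other clones' mean fall of -2.58, while clones 13 and 10 had means of 2.54 and 2.01 TPM. AP-1 genes gave 1 lower of 20, BATF3 (-1.44), and YAP and TEAD targets gave 1 higher, FJX1 (1.63), and 1 lower, CYR61 (-1.02), of 22. CYR61 lost its call without clone 12 replicate 1 (-0.92) or replicate 2 (-0.85), and without clone 10 (-0.999), clone 11 (-0.87) or clone 13 (-0.94).

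Of 24 tested genes of cholesterol synthesis and its control, 19 were not called against untreated cells in clone 12, and 5 were higher than in the other clones' mean and 0 lower. At an unadjusted p under 0.05 in limma 21 were higher and 0 lower, beside 13% and 12.3% of all tested genes. The median difference was 0.73, and 23 of the 24 differences were above 0. Against untreated cells 2 of the 24 were higher and 3 lower in clone 12, and 0 were higher and 9 lower in the other clones' mean. HMGCS1, which makes HMG-CoA, had 63.0, 75.9 and 71.3 TPM in clone 12, 73.8 to 81.6 TPM in untreated cells and a median of 26.8 TPM over the other libraries (difference 1.18, SE 0.25, adjusted p = 0.00374). MSMO1, a demethylase of sterol intermediates, had 72.0, 109 and 105 TPM against 44.7 to 49.6 TPM in untreated cells and clone means of 11.5 to 81.6 TPM elsewhere (difference 1.35, adjusted p = 0.000519), and its change against untreated cells was 0.99. DHCR7, of the last step and outside the naming rule (1.048), MVD, a decarboxylase of the mevalonate branch (1.0505), and INSIG1, the sterol-sensing brake (1.12), were the other 3. INSIG1 had risen, from 84.9 to 91.1 TPM in untreated cells to 246, 339 and 307 TPM in clone 12 (1.74, adjusted p = 0.000117), with means of 311 and 248 TPM in clones 10 and 11. MVD lost its call without clone 12 replicate 3 (0.94) or clone 8 (0.84), and INSIG1 without clone 7 (0.94) or clone 8 (0.93). HMGCS1 was lowest in clones 8, 9 and 7, the vemurafenib clones, with means of 18, 23.5 and 27.5 TPM. Against the mean of clones 10, 11 and 13 and against clone 10 alone, 0 of the 24 were called in either direction, with medians of 0.38 and 0.14. The count of 5 became 3 without clone 7, 2 without clone 8 and 9 without clone 10.

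**Figure D4:**
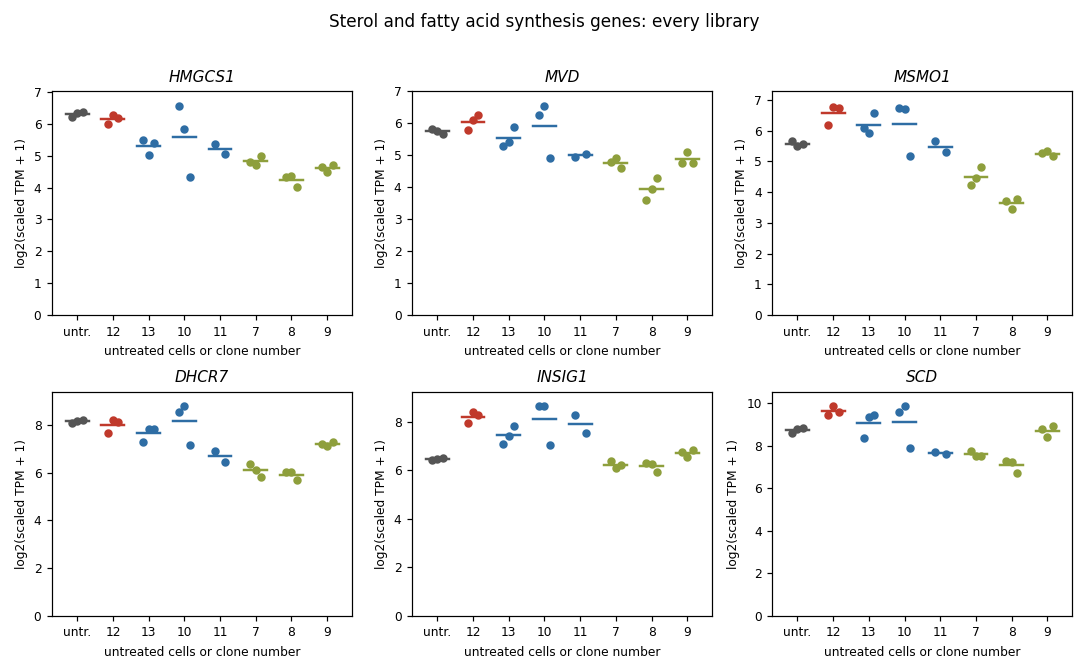
Level of 5 genes of cholesterol synthesis and its control and of the fatty acid desaturase SCD in every library, on log2(scaled TPM + 1), by group; points are libraries and bars are group means. Clone 12 is close to untreated cells for HMGCS1, MVD and DHCR7, and clones 7 and 8 are low in all 6 genes.

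Among 23 tested genes of lipid uptake and storage, 4 were higher and 1 lower, beside 1.39% and 0.773% of all tested genes. SCD, the desaturase that makes oleate, had 694, 948 and 771 TPM in clone 12, 392.3 to 451 TPM in untreated cells and clone means of 137 to 652 TPM elsewhere (difference 1.43, adjusted p = 0.00163). FABP7, a brain-type fatty acid binding protein, had fallen from 123 to 141 TPM in untreated cells to 33.1, 29.9 and 15.7 TPM in clone 12, less than the other clones' mean (difference 2.02, SE 0.33, adjusted p = 0.00037). APOE, given above, and APOC1, outside the naming rule (1.0048), were the other higher genes. G0S2 (-1.03) was the lower one, with a high mean of 52.7 TPM in clone 8 and under 1 TPM in each other clone, and its call was lost without clone 12 replicate 2 (-0.89) or clone 10 replicate 1 (-0.96). Drug transporters and metabolism gave 3 higher of 14: UGT1A10, ABCB5 (34.6, 32.4 and 6.22 TPM, replicate 3 far below the others) and ABCC4, a drug efflux pump (25.3, 31.2 and 26.7 TPM), which lost its call (1.13) without clone 8 (0.94) or clone 11 (0.99).

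Of the 17 larger falls, 3 were called in all 6 other clones as well, and 2 were called against clone 13 alone. MGC4294 had 27.2 to 33.1 TPM in untreated cells and 0.462, 0.346 and 0.828 TPM in clone 12, with clone means elsewhere of 1.14 to 14.7 TPM (difference -1.75, SE 0.21, adjusted p = 1.67e-05). PCDH7, a protocadherin, had 19.9 to 24.2 TPM in untreated cells, 0.739 to 1.38 TPM in clone 12 and means of 1.495 and 0.869 TPM in clones 13 and 10. CDH2, N-cadherin, had 12.8 to 13 TPM in untreated cells and 4.82, 3.48 and 4.38 TPM in clone 12, while clones 7, 8, 9 and 11 held means of 19.9 to 29.8 TPM. Clone 13 had a mean of 8.37 TPM. Clone 10 lay below clone 12, at a mean of 1.86 TPM and a fall of -2.32 beside -1.42 in clone 12. RAMP1, a subunit of the CGRP receptor (-1.56), NPDC1 (-1.49), HILS1 (-1.56) and C11orf96 (-1.47) completed the leading 8 with HEY1. HILS1 lost its call without clone 12 replicate 1 (-1.52) or replicate 2 (-1.51), and C11orf96 without replicate 2 (-1.21) or replicate 3 (-1.31) or without clone 11 (-0.94).

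Smaller falls were led by FRZB and MCF2L. PLA1A, a phosphatidylserine phospholipase, had 22, 29.9 and 15.5 TPM in clone 12 and 29.6 to 32.2 TPM in untreated cells, with clone 10 at a mean of 27.8 TPM and the others at 0.94 to 11.8 TPM. RAB17, a small GTPase of vesicle traffic, had 66.2, 69.6 and 35.7 TPM in clone 12, 79 to 85.3 TPM in untreated cells and clone means of 7.12 to 38.2 TPM elsewhere (difference 1.81). ANKS1B was kept in clones 12 and 7 (means of 13.8 and 32.4 TPM) and GPRC5B, an orphan receptor, had 43.9 to 60.3 TPM in clone 12 against clone means of 5.56 to 41 TPM. Of the 40 genes of this class, 12 had still fallen in clone 12 against untreated cells.

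Genes of other lists named by the rule were called against the mean of the other 6 clones, in many cases with a clone at or beyond the level of clone 12. FOXF2, a forkhead factor of mesenchyme (1.52), KCNJ2, an inward rectifier channel (1.58), PLXNC1, a semaphorin receptor (2.04), ZMAT3, a p53 target (1.17), SPRY1, an inhibitor of receptor kinase signaling (1.03), SEMA5A (1.03), SLIT3 (1.09), ADM, adrenomedullin (1.08), AKR1C3, an aldo-keto reductase (1.59), ALDH1A1, an aldehyde dehydrogenase (1.47), HLA-DPA1 (1.055), PPARGC1A, a coactivator of mitochondrial genes (1.0018), CSAG1 (1.499) and MAGEA12 (1.35) were higher. NTN4, a netrin (-1.73), KCNN4, a potassium channel (-1.23), AQP1, a water channel (-1.31), and CSF1R (-1.04954) were lower. Among the higher genes clone 12 had the highest clone mean in ZMAT3, SEMA5A, PPARGC1A, CSAG1 and MAGEA12 and not in the rest. ALDH1A1 was higher in clone 10, at a mean of 128 TPM against 24.2 TPM in clone 12 (-2.56, adjusted p = 0.00647). FOXF2 had means of 163 and 112 TPM in clones 10 and 9 against 92.7 TPM in clone 12, and HLA-DPA1 had 4.39 and 4.40 TPM in clones 11 and 13 against 4.35 TPM. Of the lower genes, AQP1 and CSF1R had their lowest clone mean in clone 12, and KCNN4 and NTN4 had it in clone 10. FOXF2, KCNJ2, PLXNC1, ZMAT3, CSAG1 and NTN4 kept their calls under every library or clone left out, and the other 12 did not. Without clone 8 the values not called were those of SPRY1 (0.88), SEMA5A (0.94), SLIT3 (0.77), ADM (0.88), AKR1C3 (1.29), ALDH1A1 (0.95), HLA-DPA1 (0.95), PPARGC1A (0.95), KCNN4 (-0.915) and CSF1R (-0.91). Without clone 12 replicate 1 they were SPRY1 (0.997), SLIT3 (0.90), AKR1C3 (1.16), HLA-DPA1 (0.76) and PPARGC1A (0.79), and without its replicate 2 AKR1C3 (1.42), ALDH1A1 (1.43), PPARGC1A (0.81), AQP1 (-1.12) and CSF1R (-0.997). ALDH1A1 was also lost without replicate 3 (0.94) and MAGEA12 without clone 9 (0.999). CSAG1, MAGEA12, HLA-DPA1, AKR1C3 and CCL3 have close relatives between which estimation can divide reads, so they are uncertain.

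**Figure D5:**
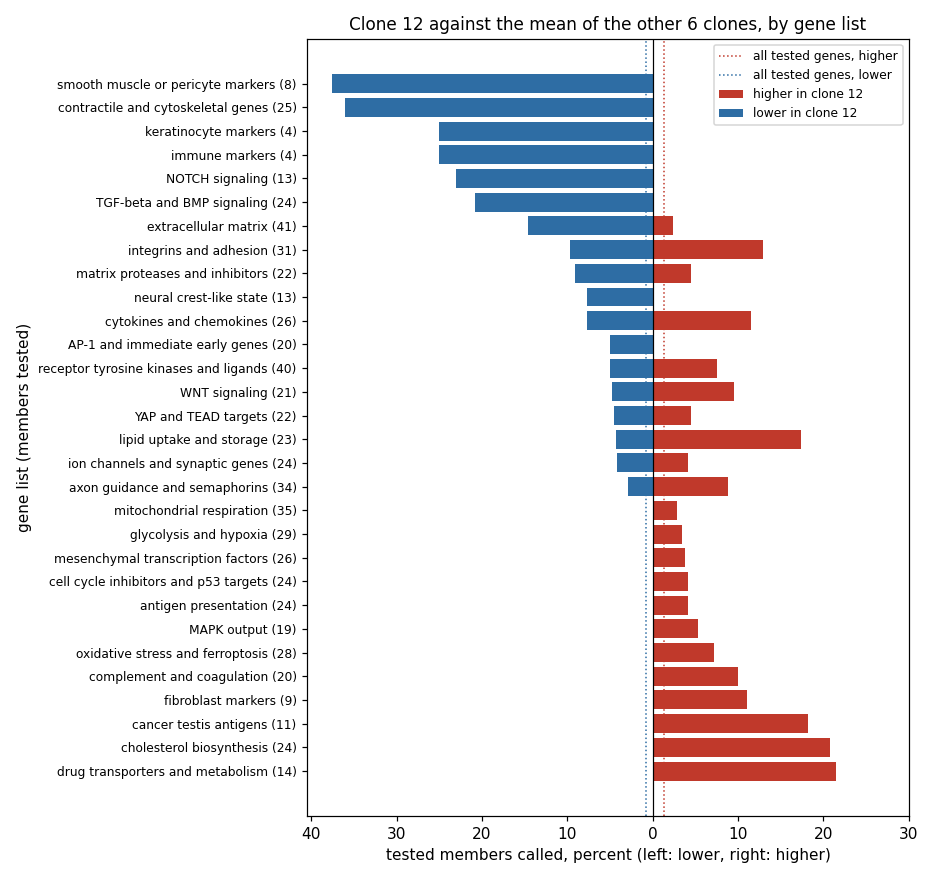
Share of tested members of each gene list called higher (right, red) or lower (left, blue) in clone 12 against the mean of the other 6 clones; dotted lines give the shares over all tested genes, 1.39% and 0.773%, and the number tested stands in brackets. Lists with no call are left out; lists of under 10 genes move by large steps.

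Of 41 lists, 30 had a member called against the other clones and 11 had none: melanocyte differentiation, cell cycle, interferon response, metallothioneins, integrated stress response, mitochondrially encoded genes, ribosomal proteins, BCL2 family, HOX genes, and endothelial and Schwann or neuronal markers. At an unadjusted p under 0.05, limma gave 7 higher and 0 lower of 19 melanocyte genes, 0 higher and 2 lower of 36 cell cycle genes and 1 higher and 13 lower of 40 interferon genes, beside 13% higher and 12.3% lower of all tested genes. Against untreated cells 36 of 40 interferon genes had risen in clone 12 and 35 in the other clones' mean, and 16 of 19 melanocyte genes had fallen in both. Over all tested genes, 11.5% had risen in clone 12 and 10.9% in that mean, and 8.02% and 8% had fallen. BST2 and IFITM1, interferon-induced membrane proteins, had risen by 6.02 and 6.48, and CDK2 had fallen by 4.36 and TK1, thymidine kinase, risen by 1.85. Other leading changes against untreated cells in lists with no call were rises of STC2, a secreted stress-response glycoprotein (3.08), SLC7A11, the cystine transporter (1.76), and VWF, von Willebrand factor (1.24), and falls of S100B (-6.70), the survival gene BCL2A1 (-3.41), the death gene HRK (-2.22), HOXD1 (-2.04) and HOXA3 (-1.24). The metallothionein gene MT1X had risen by 1.07 and was not called under quantile normalization (0.94), without clone 12 replicate 3 (0.94) or without untreated replicate 2 (0.99). Of 39 ribosomal protein genes 15 had fallen in clone 12, led by RPL8 (-1.47) and RPS3 (-1.40), and of 13 mitochondrially encoded genes 3, led by MT-CYB (-1.50) and MT-ND4 (-1.12). Quantile normalization took RPS3 to -0.97, MT-CYB to -0.81 and MT-ND4 to -0.26, not called, and MT-ND4 was not called without scaling (-0.91) or without clone 12 replicate 1 (-0.96).

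The fixed panel showed the common state of the series. SOX10, MITF, TYR, MLANA and PMEL had fallen, AXL and EGFR had risen, by 4.77 and 2.88, and SPRY4 had fallen by 3.21. None of these was called different from the other clones. DUSP6 (-1.01), CCND1 (0.08), MKI67 (0.66) and NGFR (0.84) were not called against untreated cells. DUSP6 was called without clone 12 replicate 1 (-1.53), NGFR was called without clone 12 replicate 3 (1.005), and the value of CCND1 turned to -0.11 without clone 12 replicate 3 and to -0.10 under quantile normalization. MEF2D, a MADS-box factor of muscle genes picked after its values were seen, was at 14.6, 15.1 and 12.9 TPM in clone 12, a fall of -1.45, and at 15.2 to 36.3 TPM in the other clones' libraries, all above clone 12 though the difference (-0.67) was not called.

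Clone 12 replicate 3 stood apart from replicates 1 and 2 in pigment genes. MLANA, a melanosome antigen, had 26.3, 14.5 and 0.752 TPM in replicates 1 to 3, PMEL, the melanosome scaffold, 388, 251 and 23.3 TPM, SOX10, the lineage factor, 8.34, 2.86 and 0.29 TPM and TYR, tyrosinase, 5.99, 3.64 and 0.244 TPM. CTSK, PROS1, ABCB5, LBP, IL1RN and MCF2L were lowest in the same library, and ACTA2, TAGLN and COL1A2 were highest in it. In clones 10 and 13 too, PMEL, SOX10, CTSK and LBP fell from replicate 1 to 2 to 3. PMEL had 278, 55.3 and 31.6 TPM in clone 10 and 179, 46.6 and 31.1 TPM in clone 13. ACTA2 and TAGLN were highest in replicate 1 of those clones, unlike in clone 12. The part of the clone 12 replicate 3 difference in the results was not tested beyond leaving that library out. Without it, 298 genes were higher and 161 lower than in the other clones, against 218 and 121 with it.

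Markers of other cell types were summed per library. The summed level of 10 fibroblast markers was 2179 to 3066 TPM in clone 12, 59.8 to 69.2 TPM in untreated cells and 2315 to 7775 TPM in the other clones. Of 9 tested, 8 had risen in clone 12, beside 11.5% of all tested genes. Most of the fibroblast sum in clone 12 was COL1A1, at 2013 ± 600 TPM (SD, n = 3). For 8 smooth muscle or pericyte markers the sums were 141 to 304 TPM in clone 12, 487 to 535 TPM in untreated cells and 143 to 10936 TPM in the other clones. In untreated cells ACTA2, TAGLN and CNN1 held at most 12.7, 4.61 and 1.72 TPM. Most of that sum therefore came from other members of the list. The 8 endothelial markers summed to 3.00 to 3.20 TPM in clone 12, 1.57 to 1.75 TPM in untreated cells and 1.74 to 5.68 TPM in the other clones, with 1 of them at a mean of 1 TPM or more in clone 12 and CDH5 at 0 in all its libraries. The 9 immune markers summed to 347 to 522 TPM in clone 12, 168 to 170.4 TPM in untreated cells and 154 to 751 TPM in the other clones, with 4 of them at a mean of 1 TPM or more in clone 12 and 2, CD3E among them, at 0. The 8 keratinocyte markers summed to 47.2 to 82.7 TPM in clone 12 and 46.3 to 52.9 TPM in untreated cells, and the 10 Schwann or neuronal markers to 51.9 to 99.8 TPM and 1289 to 1386 TPM. Most of the last sum was S100B, at 710 to 810 TPM, and the melanocyte lineage factor SOX10, at 465 to 473 TPM. The 21 melanocyte genes summed to 494 to 1063 TPM in clone 12, 13440 to 13870 TPM in untreated cells and 299 to 908 TPM in the other clones. A part of other cells in these levels was not tested.

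With the same drugs on both sides, against the mean of clones 10, 11 and 13, 178 genes were higher in clone 12 (1.14%) and 113 lower (0.722%). The number higher was 115 without clone 12 replicate 2. Of the 157 larger rises, 90 were called here too, among them TAC3 (3.98), PLN (3.67), LBP (3.26), WISP2 (3.04), TMEM100 (2.67) and SFRP1 (2.53). Of the 95 smaller rises, 50 were called, among them COL1A2 (-3.44), COL4A2 (-3.34), COL4A1 (-3.06), ACTA2 (-2.41) and INHBA (-1.28). HMGCS1 (0.77), MVD (0.58) and MSMO1 (0.61) were not called. The classes were selected on the same clone 12 libraries and on a mean that includes clones 10, 11 and 13. The overlaps with them are therefore partly set by that selection and are not a separate test. Singly, clone 13 differed from clone 12 in the fewest genes, 91 higher (0.581%) and 147 lower (0.939%), and clone 8 in the most, 805 (5.14%) and 563 (3.6%). The shares higher and lower in clone 12 were 1.66% and 0.849% against clone 10, 1.78% and 1.74% against clone 9, 2.96% and 2.2% against clone 7, and 3.93% and 3.7% against clone 11.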

How the data were processed

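Gene expression was measured by paired-end sequencing of poly(A) RNA in 23 libraries. The authors deposited 1 table of TPM values for all libraries, made with kallisto against hg19 per the submitters' processing notes. Versions, annotation and any transcript-to-gene step were not given in the sources used here. Every column of the table was matched to a library by its label. Library scaling used the mean log ratio to a reference after trimming (30% of ratios and 5% of levels), over 10822 genes at 1 TPM or more in every library. Genes at 1 TPM or more in at least 2 libraries were tested on log2(scaled TPM + 1) with limma 3.58.1 in R 4.3.3, with 1 fit over all 8 groups, a mean-variance trend and Benjamini-Hochberg adjustment within each contrast. Adjusted p under 0.05 and an absolute log2 change of at least 1 made a call.

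On simulated data with 100 changed genes per size among 14982, 97% at a log2 change of 1.5 and 99% at 3 were recovered against untreated cells, and 100% at both sizes against the other clones. Changed genes were drawn only above a minimum mean level, with normal noise and a common mean for all groups before the change. These rates therefore do not cover low genes such as ELSPBP1. Genes were named by rule: a panel of 12, genes called against every other clone, the leading 8 of each class with a group mean of at least 4 TPM and a clone 12 mean beyond at least 5 of the 6 other clone means, and up to 4 members called in each list, or 2 called against untreated cells where none was. The members and lists were chosen with earlier results of these data known. Same-numbered libraries of clones 12 and 13 deviated together (r = 0.17 to 0.42 in 3 pairs, a pattern in the data, not in the labels), and with a replicate block 97 genes were higher and 147 lower than in clone 13, with HGF then called (1.72, adjusted p = 0.0474 in limma, against 0.0922 without the block). The alternatives tried were other scalings, pseudocounts, filters and variance models, a replicate block, and leaving out libraries and clones. Promoter sequences are RefSeq windows on GRCh38.p14 matched by symbol, and no coordinate of the hg19 data was used. A few genes the rule names are not reported here.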

Additional observations from a re-analysis of the deposited data

Results flagged for a closer look

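In 5 genes the change of clone 12 against untreated cells differed from that of every other clone, by a test of the difference itself in limma. The difference from the mean of the other 6 clones was 4.24 for TAC3, 2.90 for WISP2, 2.31 for MCF2L, 1.99 for ELSPBP1 and 1.67 for UGT1A7, on log2(scaled TPM + 1). In TAC3, WISP2, ELSPBP1 and UGT1A7 clone 12 had risen more, and in MCF2L it had stayed near the untreated level while the other clones had fallen.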

How the results depend on the processing

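Against untreated cells the counts moved with the scaling and the filter, to 2171 higher and 967 lower with TPM as deposited and to 1660 and 941 under the stricter filter, and less with the libraries: 1773 to 1796 genes were higher and 1228 to 1263 lower when 1 untreated library was left out, and 1782 to 1788 and 1227 to 1288 when 1 clone 12 library was. With a pseudocount of 0.1, 345 genes were higher and 252 lower than in the other 6 clones, 272 and 197 than in clones 10, 11 and 13, and 2 lower than in each clone, and the 4 classes held 239 larger and 181 smaller rises and 52 larger and 74 smaller falls. Quantile normalization gave 1 gene lower than in each clone, and the stricter filter gave 3 higher. Leaving a clone out of the others gave 192 genes lower without clone 10, with 17 higher and 10 lower than in each clone, 11 higher than in each without clone 7, 8 higher without clone 9 and 1 lower without clone 8. Leaving out 1 clone 12 library gave 163 to 298 genes higher and 97 to 161 lower than in the other 6 clones, 115 to 259 and 91 to 156 than in clones 10, 11 and 13, and 4 to 16 and 0 to 2 than in each clone. Clone 10 replicate 1 and clone 8 replicate 3 were left out in settings chosen after seeing the data, and the latter gave 1 gene lower than in each clone. The causes were not tested. Of 182 gene results, 138 kept their side of the threshold and their direction in every setting run. CCND1 against untreated cells (0.08) reversed to -0.10 under quantile normalization and to -0.11 without clone 12 replicate 3, and ran to 0.24 without replicate 1.

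Deviations of same-numbered clone 12 and untreated libraries correlated at -0.13 to -0.01, with 0 of 3 pairs over 0.1, so the numbers were not taken to pair them. With the other clones they correlated at -0.16 to 0.42, and in 1 of the 6, clone 13, all 3 pairs were over 0.1. Clones 10 and 8 each had 2 of 3 pairs over 0.1, at most 0.34 and 0.16. With the replicate block, 1801 genes were higher and 1256 lower than in untreated cells, 220 and 123 against the other 6 clones, 179 and 114 against clones 10, 11 and 13, and 5 and 0 against each clone; 1 gene call was lost, that of PPARGC1A (0.99). TPM carries no depth, so low levels such as those of ELSPBP1 have no counting interval.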

Other observations

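All 39 ribosomal protein genes lay below the mean of the other 6 clones in clone 12, with a median difference of -0.19 and 0 called in limma (7 lower at an unadjusted p under 0.05, beside 12.3% of all tested genes), while their median against clones 10, 11 and 13 was 0.24. Antigen presentation genes lay above the mean of the other 6 clones in 22 of 24 tested (median 0.24), with 1 called. Nuclear genes of mitochondrial respiration did so in 31 of 35 (median 0.23), with 1 called. The called member of this last list was the coactivator PPARGC1A. Its call was lost in several settings, among them quantile normalization (0.99) and leaving out clone 12 replicate 1 (0.79). The median difference of all tested genes was -0.0008. The members of each list were measured in the same libraries and are not independent.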
